A study of Mus musculus with 20 samples.

Results

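Whole blood of irradiated Il10-/- mice was compared with whole blood of irradiated wild-type (WT) mice, on 10 of the 20 arrays of the series, chosen by their labels alone. Each group held 5 arrays. The mice were male littermates of 8 to 10 weeks, bred from heterozygous parents. The Il10-/- mice carried 2 copies of the knockout allele Il10tm1Cgn and the WT mice were C57BL/6. All of the mice compared here had received 7 Gy of X-rays to the whole body, and their blood was drawn by cardiac puncture 24 h later into a solution that lyses the cells and stabilises RNA. Globin RNA was reduced before labelling. The other 10 arrays came from sham-irradiated mice (0 Gy) of both genotypes and serve here only to show where the irradiated groups differ from them. The Il10 allele was made in stem cells of another mouse strain and then bred onto C57BL/6, so genes beside Il10 on chromosome 1 can still be of that strain in the Il10-/- mice, which limits the line as a model of the gene alone. The labels number the replicates without naming an animal, and the p-values measure the spread between these arrays.

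IL-10 is a cytokine that restrains inflammation. Macrophages, B cells and T cells secrete it, and it signals through the receptor chains Il10ra and Il10rb, the kinase Jak1 and the transcription factor Stat3. Mice without it are prone to a colitis driven by gut bacteria and are used as a model of inflammatory bowel disease. Whole-body irradiation depletes the blood of lymphocytes within a day, B cells most of all, and induces the targets of p53 in the cells that remain.

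The arrays measured blood: the pan-leukocyte gene Ptprc, the erythroid genes Hba-a1 and Alas2, and markers of B cells (Cd79a, Ms4a1), T cells (Cd3e, Cd3d, Lck), neutrophils (S100a8, S100a9, Csf3r), monocytes (Csf1r, Cd68, Fcgr1) and platelets (Pf4, Ppbp, Itga2b) were well above background on all 10 arrays. Liver and heart transcripts were present too. The mean level of the hepatocyte genes tested, on the log2 scale with the median of the array at 0, was 10.93, 10.94, 7.99, 2.63 and 5.29 on WT replicates 1 to 5 and 9.13, 9.16, 1.33, 7.65 and 4.49 on Il10-/- replicates 1 to 5. The heart muscle level was 7.26, 7.15, 4.06, 0.51 and 0.49 in WT blood and 6.97, 6.97, 4.59, 5.28 and 1.61 in Il10-/- blood. Both levels were high on replicates 1 and 2 of either genotype and ranged widely on the others, so the groups overlapped and the replicate error of liver genes was large. Of the lung markers Sftpc was well above background on 0 of 10 arrays, Sftpb on 1 WT and 2 Il10-/- arrays and Scgb1a1 on 4 and 2, while Napsa was at 3.11 to 3.98 in WT and 3.52 to 5.14 in Il10-/- blood.

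**Figure D1:**
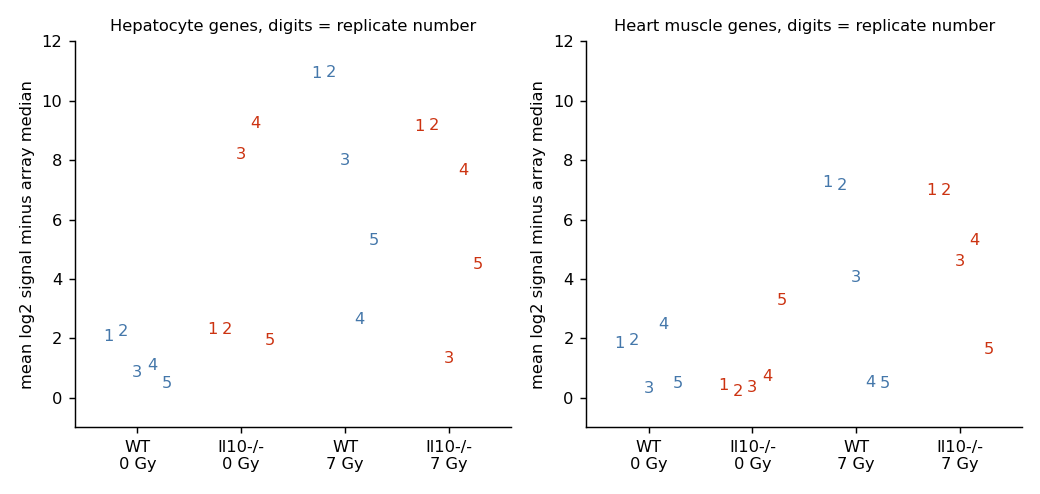
Mean log2 signal relative to the array median of the hepatocyte genes (left) and the heart muscle genes (right) on each of the 20 arrays, with genotype and dose on the horizontal axis, digits for the replicate numbers, WT in blue and Il10-/- in red. In the irradiated groups replicates 1 and 2 sit together at the top, and hepatocyte levels run from 1.33 to 10.94.

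Replicates 1 and 2 were the most alike pair within each genotype. The spread of their difference over the tested probes was taken as a robust standard deviation, from the median absolute deviation. On the log2 scale it was 0.252 in WT blood against 0.460 to 1.08 for other WT pairs, and 0.336 in Il10-/- blood against 0.590 to 0.855. Replicates 1 and 2 differed by more than repeated spots of 1 array did and were counted singly. Hybridisations of 1 RNA could do so too, and whether replicates 1 and 2 share an animal or an extraction is not given in the sources used here. If they do, n is 4 a group and not 5, and with the pair averaged 0 genes were called. Il10-/- replicates 3 and 4 had the lowest detection and are called the weak arrays here. Of their spots 34.6% and 39.0% were well above background, against 41.0% on Il10-/- replicate 5. The 25th percentile of their raw log2 signal was raised, at 3.30 and 2.57 against 1.14 to 1.67 on the other 8 arrays. Their raw 75th percentile, 6.68 and 6.62, lay within the 5.32 to 6.98 of the others. Weak thus refers to detection and not to total signal. The share of spots well above background was 49.8% ± 5.88 (SD, n = 5) in WT blood and 44.0% ± 8.32 (SD, n = 5) in Il10-/- blood (two-sided exact permutation test, p = 0.206).

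After irradiation 1 gene differed between the genotypes by the study's criteria (p below 0.001 and a false discovery rate below 10%). It was Pam, which was higher in Il10-/- blood, and no gene was lower. That is 0.00538% of the 18580 probes tested, or 0.00636% of 15730 genes. With the slide, which replicate numbers mark, as a block 0 genes were called. At an unadjusted p below 0.001 there were 56 probes (0.301%), of which 32 were higher (0.172%) and 24 lower (0.129%) in Il10-/- blood. The difference was above 0 for 56.7% of the probes. At an unadjusted p below 0.05 there were 2065 probes (11.1%), with 1500 higher (8.07%) and 565 lower (3.04%). With the block these were 3643 probes, 2316 higher and 1327 lower. The 5 arrays of one genotype did not overlap the 5 of the other for 551 probes (2.97%), of which 418 were higher (2.25%) and 133 lower (0.716%). All differences below are Il10-/- minus WT on the log2 scale after each array was set to a median of 0, and the genes named are not called unless it is said that they are.

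The balance of higher and lower probes depended on the scaling. At an unadjusted p below 0.05 there were 803 higher and 756 lower probes when arrays were scaled to their 75th percentile, 930 and 935 after quantile normalization, 1455 and 735 when scaled to a reference array, 1476 and 701 in the authors' own table, and 7 and 580 after normexp background correction. The median difference of all probes was 0.08, and -0.03, -0.10, 0.01, 0.01 and -0.50 under those settings in turn. It also depended on single arrays: without WT replicate 1 the split was 846 higher and 836 lower, without WT replicate 2 it was 921 and 1005, without Il10-/- replicate 4 it was 870 and 470, and with replicates 1 and 2 averaged it was 785 and 593. A list of genes is therefore described below by its members' values beside those of all genes tested, of which 7.76% were higher and 3.22% lower at an unadjusted p below 0.05, with a median difference of 0.07.

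**Figure D2:**
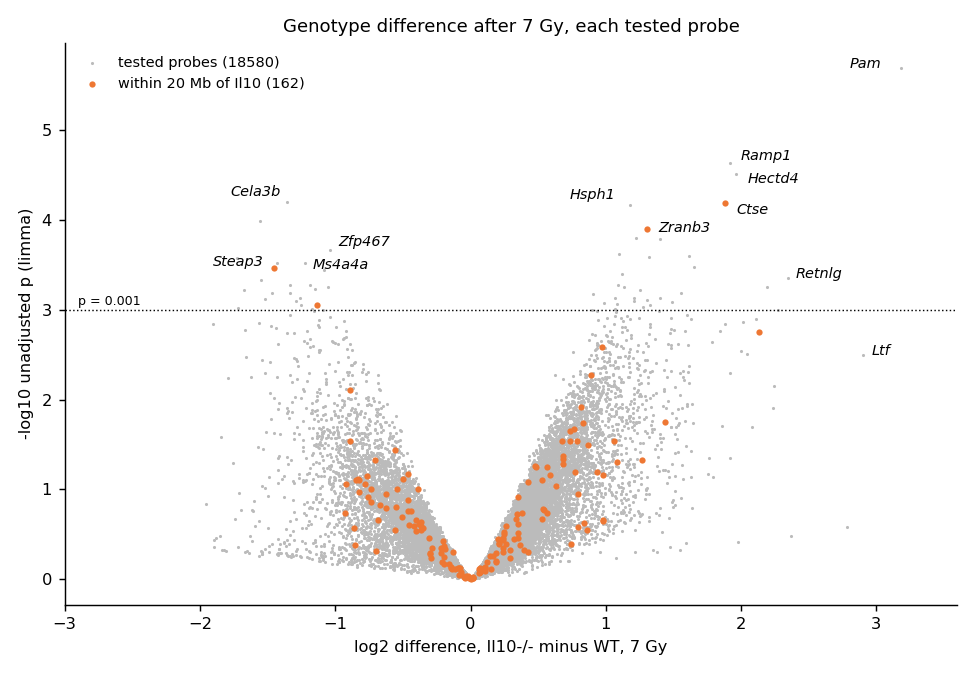
Difference between irradiated Il10-/- and irradiated WT blood (log2, horizontal axis) against −log10 of limma's unadjusted p (vertical axis) for the 18580 probes tested, with probes on chromosome 1 within 20 Mb of Il10 in orange and the dotted line at the unadjusted threshold of 0.001. Pam stands alone at a difference of 3.18, and Ramp1 (1.92) and Cela3b (-1.36) have the next smallest p on their sides.

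The Il10 probe itself (chr1:132920943-132921002, mm9, plus strand) gave more signal in Il10-/- blood. On the log2 scale with the array median at 0 it measured -2.34, -2.64, -1.63, -1.30 and -1.35 in WT blood and 1.94, 2.18, 2.86, 3.29 and 3.26 in Il10-/- blood. Every Il10-/- array exceeded every WT array, by 4.29, 4.82, 4.49, 4.59 and 4.61 on the 5 slides, each of which carried 1 array per group. None of the WT arrays and all 5 Il10-/- arrays were well above background here, which makes Il10-/- blood at least 8.0-fold higher (means -1.85 ± 0.61 and 2.71 ± 0.62, SD, n = 5; two-sided exact permutation test, p = 0.00794, the smallest that 5 arrays against 5 allow). It did not pass the filter on detection, and without that filter its adjusted p by limma was 0.00347. The probe starts at base 701 of the transcript. The allele disrupts the first part of the coding sequence, so a signal here does not check the genotype labels, and the groups are named as labelled. At 0 Gy the difference was 4.29.

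Pam encodes the enzyme that amidates the ends of peptide hormones, and its probe (chr1:99718052-99718111, minus strand) lies at -33.2 Mb from Il10. Its signal on the same scale was -0.31, 0.58, -0.32, -1.04 and 0.03 on the WT arrays and 2.49, 2.91, 3.93, 3.18 and 2.34 on the Il10-/- arrays. The groups were far apart, and the differences within slides were 2.80, 2.33, 4.25, 4.22 and 2.31. Pam rose by 3.18 (SE 0.37) or 9.09-fold in measured signal, with an adjusted p of 0.0378. Only 2 of the 5 WT arrays and all 5 Il10-/- arrays were above background, so the WT level is in part a bound, and this was the sole probe for the gene. The call did not survive the loss of WT replicate 1, 3 or 5 or of Il10-/- replicate 2 or 4, with adjusted p from 0.0283 to 0.270 over the 10 arrays left out in turn, nor the slide as a block (adjusted p = 0.147). The difference itself stayed between 2.94 and 3.38 when arrays were left out. After normexp correction it was 0.66 and not called. The last 30 bases of the probe, which begins at base 3662 of the transcript, hold only G and T, a feature of 0.0761% of the 39429 probes on the array. They are shown because the single call rests on this sequence alone, with the 3 copies of GGTTTT in capitals.
Pam probe, last 30 bases: tGGTTTTttGGTTTTGGTTTTggtttggtt
As many copies of GGTTTT (or AAAACC, its other strand) occur in 5 probes, or 0.0127%. Without irradiation the Pam difference was 2.53 (adjusted p = 0.105, not called).

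The genes named next were higher in Il10-/- blood and had the smallest p among those whose groups did not overlap. Their separation was thus fixed by the choice. Ramp1 came first. It encodes an accessory chain of the receptor for the neuropeptide CGRP. It measured 3.57, 3.72, 4.32, 4.62 and 4.74 in WT and 6.04, 6.37, 5.75, 5.98 and 6.42 in Il10-/- blood. The 2 ranges were separate and the difference was 1.92 (SE 0.28, 3.78-fold, adjusted p = 0.190). Ctse, which encodes the aspartic protease cathepsin E and lies 0.651 Mb from Il10 (chr1:133571990-133572049), measured 3.77, 3.65, 4.41, 4.79 and 3.94 in WT and 5.61, 5.67, 5.70, 6.75 and 6.26 in Il10-/- blood. It was separate in the same way, by 1.88 (SE 0.31, adjusted p = 0.209). Hsph1 encodes a large heat shock protein that assists protein folding. Its arrays were the most uniform of these genes, with 3.46, 3.52, 3.50, 3.68 and 3.56 in WT and 4.68, 4.71, 4.64, 4.51 and 5.08 in Il10-/- blood. Its difference was 1.18 (SE 0.20, adjusted p = 0.209), and a second Hsph1 probe gave 1.23. Zranb3, a helicase that acts at stalled replication forks, was 1.31 higher and lies 3.07 Mb to the other side of Il10 (position -3.07 Mb). I830077J02Rik was 1.40 higher. Hectd4 was 1.97 higher by a probe that was well above background on 0 WT and 1 Il10-/- array (at least 1.16-fold), and the gene's 3 probes ranged from 0.35 to 1.97. A930007D18Rik was 1.10 higher with no array of either group well above background.

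**Figure D3:**
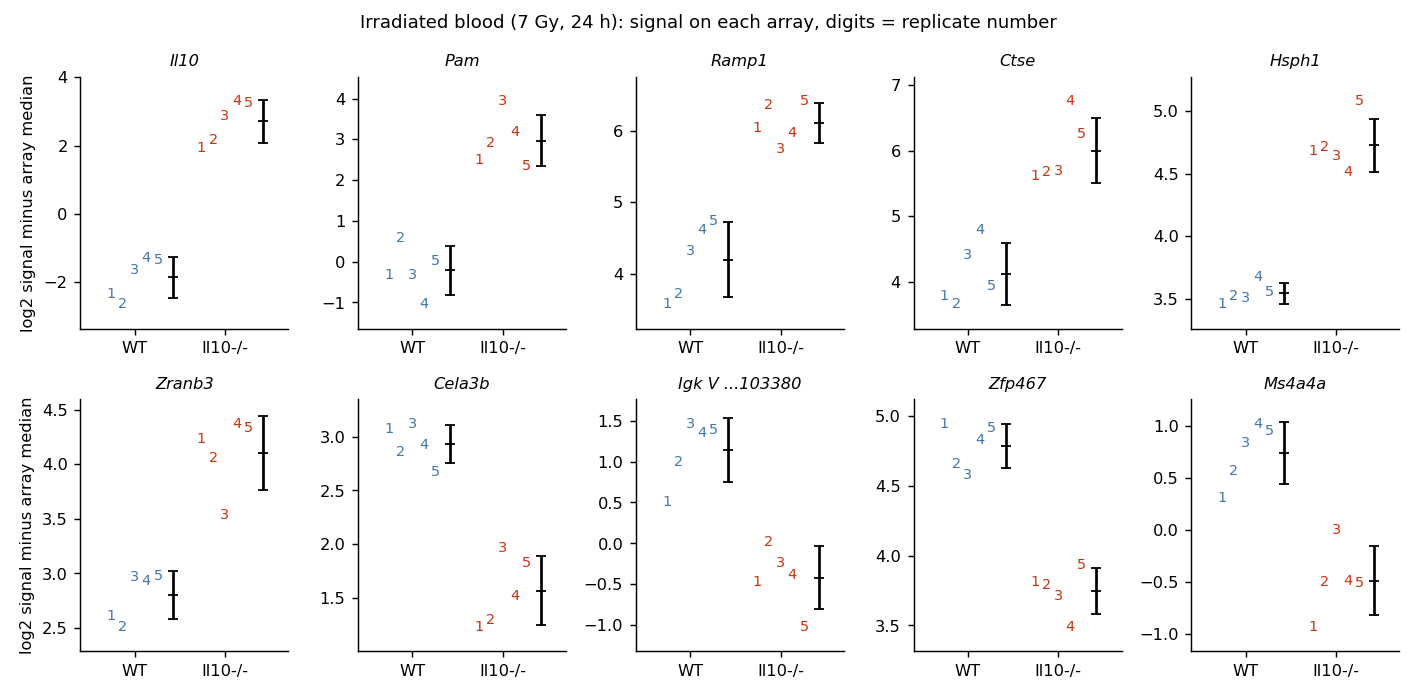
Log2 signal relative to the array median of 10 genes on each irradiated array, with digits for the replicate numbers, WT in blue on the left and Il10-/- in red on the right of each panel, and the black bar for mean and SD (n = 5). Apart from Il10 and Pam, the genes shown were chosen from those whose groups do not overlap, so the separation in their panels was fixed by the choice.

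The genes lower in Il10-/- blood were named in the same way, by the smallest p among those without overlap. Cela3b had 5 values from 2.67 to 3.12 in WT (3.07, 2.85, 3.12, 2.92 and 2.67) and 1.24, 1.30, 1.97, 1.52 and 1.82 in Il10-/- blood. It encodes a digestive protease of the elastase family, its groups did not overlap, and it was 1.36 lower (difference -1.36, SE 0.22, adjusted p = 0.209). The zinc finger gene Zfp467 measured 4.94, 4.66, 4.58, 4.83 and 4.92 in WT and 3.81, 3.79, 3.71, 3.49 and 3.93 in Il10-/- blood, a difference of -1.04, while its 3 probes ranged from -1.04 to -0.13. Ms4a4a, a membrane protein gene of macrophages, was at 0.31, 0.57, 0.84, 1.02 and 0.96 in WT and not well above background on any Il10-/- array (at least 1.21-fold lower). Steap3, a ferrireductase gene of red cell precursors, differed by -1.46. A probe without a gene name, A_55_P1967095, differed by -1.09. The adjusted p of Zfp467, Ms4a4a, Steap3 and this probe was 0.314.

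The same group held 2 variable segments of the immunoglobulin kappa light chain. B cells assemble the antigen-binding part of their light chain from such segments. The array names them by transcript, ENSMUST00000103380 (chr6:70093587-70093646, minus strand) and ENSMUST00000103393 (chr6:70356463-70356522, minus strand). The first measured 0.51, 1.00, 1.46, 1.35 and 1.39 in WT and -0.47, 0.02, -0.24, -0.38 and -1.02 in Il10-/- blood, a difference of -1.56 (SE 0.27, adjusted p = 0.269). The second measured 0.17, 0.52, -0.34, 0.80 and -0.04 in WT and -1.35, -1.06, -0.67, -1.24 and -1.70 in Il10-/- blood, a difference of -1.43 (adjusted p = 0.314). Neither pair of groups overlapped, which the choice of these probes required. The first probe was detected above background on 5 WT and 1 Il10-/- array and the second on 4 and 0, so the Il10-/- values of the second are only bounds and no fold is given. The probes are shown because segments of this family are close in sequence. Whether the 2 probes share target RNA was not tested, so they may not be separate measurements. Of 60 bases 47 are the same, and capitals mark the 13 that differ.
ENSMUST00000103380 probe: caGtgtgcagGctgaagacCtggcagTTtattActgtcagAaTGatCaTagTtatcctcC
ENSMUST00000103393 probe: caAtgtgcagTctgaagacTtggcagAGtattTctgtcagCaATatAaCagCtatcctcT
Without irradiation the same probes differed by -0.10 and -0.06, beside a median of 0.36 for all probes.

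Most kappa segments were below 0 in irradiated Il10-/- blood. Of 82 kappa variable probes on the array 56 were tested, 46 of these were below 0, 18 were lower at an unadjusted p below 0.05 and 0 were higher, beside 3.04% and 8.07% of all probes. In 8 the groups did not overlap. Many of these signals were at background: 36 of the 56 were well above it on 3 or more of the 5 WT arrays and 13 on 3 or more of the 5 Il10-/- arrays, and 7 on none of the 10. All 18 lower probes reached that in WT blood and 4 in Il10-/- blood, so the Il10-/- values behind most of these differences were at or near background. The measured median difference was -0.67 and the range was -1.72 to 0.58. At 0 Gy, where 53 WT and 54 Il10-/- probes were so detected, the median was 0.02, beside 0.36 for all probes. There 0 of the 56 had an unadjusted p below 0.05 in either direction. On unirradiated WT replicates 4 and 5 only 38.5% and 29.9% of spots were well above background, against 47.2% or more on the other unirradiated arrays. Their part in the 0 Gy values was not tested. The count of lower probes was 28 without WT replicate 1, 26 without Il10-/- replicate 3, 27 without both weak arrays and 31 after quantile normalization. After normexp correction it was 3 of 44, beside 5.07% of all probes, and the median was -0.12 against -0.50 for all probes. Of 31 heavy chain probes tested 5 were lower at an unadjusted p below 0.05, with 2 of these from 1 transcript. In all 22 were below 0, with a median of -0.26, beside 29 and -0.40 at 0 Gy. These too were often at background: 17 of the 31 were well above it on 3 or more WT arrays and 9 on 3 or more Il10-/- arrays. All 5 lower probes reached that in WT blood and 2 in Il10-/- blood. The difference from the kappa segments was not tested. In whole blood a lower signal from fewer cells of a type and from less RNA per cell cannot be told apart.

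The genes of B cells went with the kappa segments. Of 19 B cell genes tested 8 were lower at an unadjusted p below 0.05 and 0 were higher, 6 were lower without overlap, and the median difference was -0.47. Pou2af1, a coactivator of immunoglobulin transcription, measured 2.80, 2.61, 3.35, 3.53 and 3.04 in WT and 2.00, 1.61, 2.80, 1.69 and 1.39 in Il10-/- blood, and 1 Il10-/- array lay within the WT range (difference -1.17, adjusted p = 0.315 by limma). Fcmr, the receptor for the constant part of IgM, measured 2.53, 2.44, 2.92, 2.86 and 3.45 in WT and 1.63, 2.2, 1.46, 1.76 and 1.5 in Il10-/- blood (difference -1.13, adjusted p = 0.314), with no overlap. It lies 0.144 Mb from Il10, at position -0.144 Mb. Ms4a1, which encodes CD20, measured 3.72, 3.90, 4.37, 4.07 and 4.50 in WT and 3.16, 3.45, 3.48, 3.16 and 2.72 in Il10-/- blood (difference -0.92), again without overlap. Spib, a transcription factor of B cells, differed by -0.89, and the receptor chains Cd79a and Cd79b by -0.85 and -0.76. Bank1 and Blnk, adaptors of B cell receptor signalling, differed by -0.70 and -0.53. Cd22, which restrains signalling by the B cell receptor, was the highest member at 0.30.

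The B cell count was 7 to 9 when single arrays were left out, 8 without both weak arrays and 8 under the 3 other scalings by percentile, reference or quantile. After normexp correction it was 5 of 18, and the list's median of -0.31 stood above the -0.50 of all probes. Without irradiation 0 of the 19 genes had an unadjusted p below 0.05 and the median was -0.14, beside 0.36 for all probes at 0 Gy. The list thus stood below all probes at both doses, and a change of this shift with dose was not tested. Of 5 plasma cell genes tested 2 were lower, both without overlap. They were Jchain, which joins IgA and IgM chains (2.54, 2.67, 3.23, 3.69 and 2.73 in WT, 1.96, 2.22, 1.97, 1.97 and 0.32 in Il10-/- blood, difference -1.28), and Mzb1, a chaperone of antibody assembly (-0.80). Prdm1, the plasma cell transcription factor, was the highest at 0.59.

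**Figure D4:**
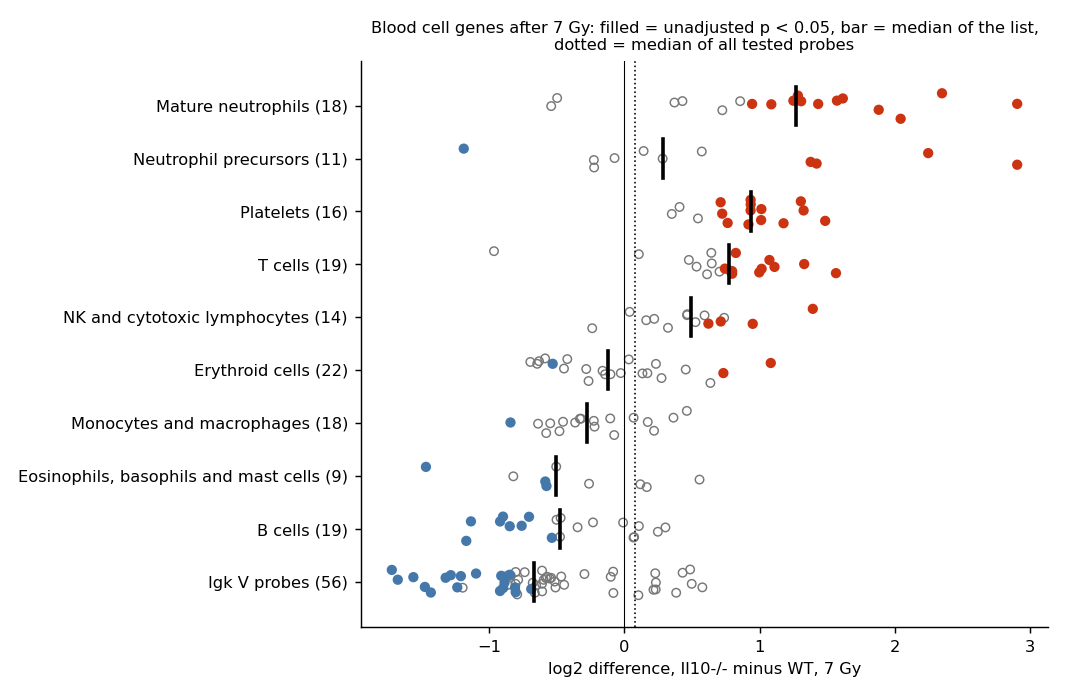
Difference between irradiated Il10-/- and irradiated WT blood (log2, horizontal axis) for each tested member of the blood cell lists, with the number tested beside the name, filled points for an unadjusted p below 0.05 (red higher, blue lower in Il10-/-), open points for the others, a black bar at each list's median, and a dotted line at the median of all probes. Neutrophil and platelet genes lie mostly to the right, and B cell genes and kappa segments mostly to the left.

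Neutrophil genes were higher in irradiated Il10-/- blood. Of 18 tested genes of mature neutrophils 12 were higher at an unadjusted p below 0.05 and 0 were lower, 8 were higher without overlap, and the median difference was 1.27. Ltf, the granule protein lactoferrin, measured -2.45, -0.96, 0.17, 0.23 and -0.05 in WT and 0.89, 0.79, 4.35, 3.93 and 1.48 in Il10-/- blood, with no overlap and the 2 weak arrays highest, detected on 1 WT and 5 Il10-/- arrays (difference 2.90, SE 0.78, adjusted p = 0.335). Cxcr2, the receptor that draws neutrophils to chemokines, measured 4.60, 4.62, 4.65, 5.48 and 5.67 in WT and 6.09, 6.33, 6.61, 8.59 and 6.80 in Il10-/- blood (difference 1.88, SE 0.45, adjusted p = 0.314). Replicate 4 stood above the rest, and no Il10-/- array reached down into the WT range. Retnlg, a resistin-like secreted protein chosen here after its values were seen, measured 6.63, 6.57, 6.6, 6.84 and 6.98 in WT and 8.04, 8.0, 9.57, 10.88 and 8.86 in Il10-/- blood (difference 2.35, adjusted p = 0.314). The other members without overlap were the collagenase Mmp8 (2.04), the stefins Stfa2 (1.61) and Stfa2l1 (1.57), the formyl peptide receptor Fpr2 (1.43) and the gelatinase Mmp9 (1.25). Whether the probes of the 2 stefins share target RNA was not tested either. The calprotectin genes S100a8 and S100a9 were 1.09 and 0.94 higher with overlap. Stfa3 (-0.54) and Padi4 (-0.50) were lowest.

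The neutrophil count was 11 to 13 when single arrays were left out. Without both weak arrays it was 8 of 18 and the median was 0.65. After normexp correction it was 4 higher and 1 lower of 16, with a median of 0.21 against -0.50 for all probes. Of 11 genes of neutrophil precursors 4 were higher, Ltf again, the granule proteins Ngp (2.24) and Camp (1.42) and the lectin Chil3 (1.38), and 1 was lower, with a median of 0.28. The higher count was 2 without WT replicate 1 or 2 or Il10-/- replicate 3 or 4. The lower gene was Ctsg, a granule protease of early precursors, with 1.39, 1.27, 2.25, 2.24 and 2.02 in WT and 0.68, 0.59, 0.71, 0.71 and 0.55 in Il10-/- blood (difference -1.18, adjusted p = 0.314), with no overlap. It was detected above background on 2 of the Il10-/- arrays.

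Of 9 tested genes of eosinophils, basophils and mast cells 3 were lower at an unadjusted p below 0.05, all without overlap, and 0 were higher, with a median of -0.50. The mast cell carboxypeptidase Cpa3 measured 5.30, 5.24, 4.35, 4.84 and 4.33 in WT and 2.76, 2.96, 3.21, 3.92 and 3.89 in Il10-/- blood (difference -1.46, adjusted p = 0.314). The eosinophil ribonucleases Ear2 and Ear1 differed by -0.58 and -0.57, and Gata2 was the highest at 0.56. Whether the Ear1 and Ear2 probes share target RNA was not tested, so they may not be separate measurements. With the liver and heart covariates 2 genes of the list were higher and 1 was lower. Of 18 monocyte and macrophage genes 0 were higher and 1 lower (Vsig4, a complement receptor of tissue macrophages, -0.84), with a median of -0.27. Of 22 erythroid genes 2 were higher, the membrane skeleton gene Sptb (1.08) and the transcription factor Gata1 (0.73), and 1 was lower, Urod of haem synthesis (-0.53).

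Platelet genes were higher in irradiated Il10-/- blood. All 16 tested were above 0, 13 were higher at an unadjusted p below 0.05, 6 were higher without overlap and the median difference was 0.93. Vwf, the adhesive protein von Willebrand factor, measured 8.18, 8.16, 8.65, 9.28 and 9.21 in WT and 9.29, 9.57, 10.36, 11.21 and 10.47 in Il10-/- blood, with no overlap at the closest pair (difference 1.48, SE 0.39, adjusted p = 0.315). The fibrinogen receptor chains Itga2b and Itgb3 were 1.32 and 1.30 higher, and the von Willebrand receptor chain Gp1bb was 1.18 higher. The chemokine Pf4 was the lowest at 0.35. The count was 11 to 14 when single arrays were left out and 10 without both weak arrays. It was 0 after normexp correction, where the median was 0.02 against -0.50 for all probes. At 0 Gy the median was 0.98, beside 0.36 for all probes, with 0 genes called.

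Of 19 T cell genes tested 10 were higher and 0 lower at an unadjusted p below 0.05, and 2 were higher without overlap, with a median of 0.78. The coreceptor Cd8a was the highest at 1.56 by a probe well above background on 1 WT and 2 Il10-/- arrays, and its partner Cd8b1 was the lowest at -0.96, so these members did not go together. Trat1, an adaptor of the T cell receptor, was 1.33 higher, and the receptor chains Cd3d and Cd3e were 0.61 and 0.48 higher with overlap. The count was 6 without WT replicate 1, 3 without WT replicate 2, 6 without Il10-/- replicate 4, 5 of 17 at the 75th percentile scaling, 1 with replicates 1 and 2 averaged and 0 after normexp correction. Of 14 genes of natural killer and cytotoxic lymphocytes 4 were higher, with a median of 0.50, and that count ran from 1 without WT replicate 1 to 9 without Il10-/- replicate 3. Fasl, the ligand by which cytotoxic cells trigger death in others, measured 2.59, 2.63, 3.00, 3.93 and 3.14 in WT and 4.43, 4.31, 5.25, 4.26 and 4.00 in Il10-/- blood, without overlap (difference 1.39, adjusted p = 0.314). Of 10 genes of regulatory T cells and checkpoints 3 were higher, the costimulator Icos (1.09), Tnfrsf18 (0.92) and the ligand Cd274 (0.71), while Foxp3, the factor that defines these cells, was at -0.38.

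The pathway downstream of IL-10 leaned upwards without a call. Of its 12 genes tested all were above 0 and 4 were higher at an unadjusted p below 0.05, with a median of 0.57. They were the receptor chain Il4ra (1.29), the feedback inhibitor Socs3 (0.86), the transcription factor Nfil3 (0.80) and the kinase Jak1 (0.67), and the lowest was Hmox1, which degrades haem (0.12). The count was 2 at the 75th percentile scaling and 0 after normexp correction, and 1 without WT replicate 1, 2 or 3 or Il10-/- replicate 4 or 5. None of 3 other cytokines of the IL-10 family that were tested was above 0 (Il22 at -0.36 was highest and Il24 at -0.55 lowest). Of 12 Th1 and Th17 genes 4 were higher, the receptor chains Il2ra (1.08) and Il17ra (0.88), the Th1 factor Tbx21 (0.86) and Stat4 (0.79). That count was 2 without WT replicate 1 or Il10-/- replicate 2, 1 with replicates 1 and 2 averaged and 7 with the liver and heart covariates. Of 17 genes of the interferon-gamma axis 4 were higher, Ifng itself (1.08), the GTPases Gbp4 (0.78) and Igtp (0.68) and the chemokine Cxcl11 (0.70), and Iigp1 was the lowest at -0.56. That count was 1 at the 75th percentile scaling.

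Cytokines and receptors of the IL-1 and IL-18 families went both ways. Of 18 tested 4 were higher and 2 lower at an unadjusted p below 0.05, and these counts were 3 to 5 and 2 to 2 when single arrays were left out. Il18rap, the second chain of the IL-18 receptor, measured -0.23, 0.09, 0.54, 0.72 and -0.56 in WT and 1.25, 1.81, 0.86, 2.73 and 1.91 in Il10-/- blood, with no overlap (difference 1.60, SE 0.37, adjusted p = 0.314). Il18r1, the first chain, measured 1.51, 1.99, 2.18, 2.67 and 1.88 in WT and 3.53, 3.48, 2.53, 3.84 and 3.48 in Il10-/- blood, and Il10-/- replicate 3 lay inside the WT range (difference 1.33, adjusted p = 0.314). The decoy receptor Il1r2 was 1.43 higher and the cytokine Il1b 0.92 higher. Il1rl1, the receptor for IL-33, measured 2.21, 2.33, 1.83, 1.98 and 2.12 in WT and 0.28, 0.73, 0.17, 1.14 and 1.48 in Il10-/- blood, lower on every array (difference -1.33, SE 0.28, adjusted p = 0.314). The cytokine Il18 differed by -0.66. Il18rap, Il18r1 and Il1rl1 lie together on chromosome 1, but over 20 Mb from Il10 (Il1rl1 at -92.4 Mb).

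None of the p53 targets or interferon-stimulated genes tested was called. Of 15 p53 targets in arrest and feedback 3 were higher (median 0.34), of 12 in apoptosis 2 (median 0.43) and of 10 in repair and metabolism 0 (median 0.43), with 0 lower in all 3 lists. The arrest gene Cdkn1a measured 5.72, 5.78, 5.42, 6.25 and 7.30 in WT and 5.73, 6.12, 6.58, 6.77 and 7.35 in Il10-/- blood, which overlapped almost fully (difference 0.41, adjusted p = 0.711). Phlda3, an inhibitor of Akt, differed by 0.34, the cyclin Ccng1 by 0.24 and the nuclease Aen by 0.10, with adjusted p values above the threshold. Cdkn1a, Phlda3, Ccng1 and Aen turned below 0 after normexp correction, at -0.41, -0.53, -0.42 and -0.70. The median of all probes under that correction was -0.50. Trp53inp1 was the highest arrest gene at 0.87 and Bcl2, measured on 4 of the 5 Il10-/- arrays, the highest apoptosis gene at 1.13. Of 28 interferon-stimulated Ifit, Ifitm and Oas genes 2 were higher, Ifit1 and Ifit3b (median 0.17). Ifit1, which binds viral RNA, measured 3.89, 4.14, 5.03, 4.93 and 4.84 in WT and 5.03, 5.16, 5.24, 6.09 and 5.63 in Il10-/- blood (difference 0.86, adjusted p = 0.391 by limma). Its groups met at 5.03 without crossing. Ifit3 differed by 0.67 and Ifitm1 by 1.18, the latter with Il10-/- replicate 4 at 11.33 and the others at 8.01 to 8.74. After normexp correction Ifit1 and Ifit3 were at -0.04 and -0.19, beside -0.50 for all probes.

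The 14 genes of the pathway and PCR list, which holds Cdkn1a, Ifit1, Il18r1 and others given above, had 3 higher and 0 lower at an unadjusted p below 0.05, with a median of 0.44. Of its other members Acsbg1, which activates fatty acids, was 0.90 higher (adjusted p = 0.415 by limma) and the glutathione transferase Gstt1 0.68 higher, Cyp2b10 was 0.46 higher, and Alas1 of haem synthesis, the lipopolysaccharide-binding protein Lbp and the fatty acid transporter Cpt2 differed by -0.59, -0.21 and -0.20. Of 17 DNA repair genes 2 were lower and 0 higher, the Fanconi gene Fanca (-0.57) and Palb2, which was at -1.36 by a probe detected on 2 WT and 0 Il10-/- arrays and at 0.52 by its other probe. That count was 0 without WT replicate 3, 4 or 5, without Il10-/- replicate 4 or without both weak arrays, and 1 without WT replicate 1 or Il10-/- replicate 1, 2, 3 or 5. Of 18 cell cycle genes 1 was higher and 1 lower, the helicase subunits Mcm4 (0.56) and Mcm6 (-0.89). The study's 2 sets of 23 classifier genes, which it chose on arrays of this series, had 2 higher and 1 lower in the set trained on WT mice and 2 higher and 3 lower in the set trained on Il10-/- mice. Interferon sensors had 1 of 12 higher, antigen presentation genes 0 of 13 in class I (median 0.40; 8 with the liver and heart covariates, and up to 4 with single arrays left out) and 1 of 11 lower in class II (H2-Oa, -0.71), and genes of lipopolysaccharide sensing and NF-kB 1 of 15 higher, the NF-kB inhibitor Tnfaip3 (1.25). Chemokines had 2 of 15 higher, Xcl1 (1.00) and Ccl5 (0.77), and 2 lower, Ccl24 (-0.88) and Ccl2 (-0.87). Chemokine receptors had 3 of 14 higher, Cxcr2 as above, Cxcr6 (0.97) and Cxcr3 (0.90), which T cells carry.

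Liver-made genes had a wide spread and no call. All 24 hepatocyte genes tested were below 0, with a median of -1.11 and 0 at an unadjusted p below 0.05. That median was 0.10 without Il10-/- replicate 3, -0.33 without WT replicate 1 and -2.62 without WT replicate 4, the arrays at the ends of the range of liver signal. Saa2, a serum amyloid of the acute phase, measured 13.33, 13.10, 11.11, 4.56 and 8.68 in WT and 12.03, 11.70, -0.32, 11.11 and 6.78 in Il10-/- blood (difference -1.90, SE 2.38). Of 16 acute-phase genes 0 passed an unadjusted p below 0.05 in either direction (median -0.89), and of 20 complement genes 1, the adipose factor Cfd (1.59). Of 10 heart muscle genes tested 0 did, with a median of 1.30, and of 5 lung genes 0, with a median of 0.19. Glutathione transferases (median -0.43), other antioxidant genes (0.12) and collagens (-0.33) had 1 higher gene each, Mgst2 (0.87), the peroxidase Gpx4 (0.69) and Col5a2 (1.30), the last not well above background on any array.

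In a fit with the hepatocyte and heart levels as covariates, which left 6 residual degrees of freedom, more genes of the whole array had an unadjusted p below 0.05 (16.7% higher and 6.12% lower). There, 10 of the 18 neutrophil genes and 15 of the 16 platelet genes were higher and 8 of the 19 B cell genes were lower. Several lists had more higher genes than without the covariates. These were 13 of 28 Ifit, Ifitm and Oas genes, 8 of 13 class I genes, 8 of 15 p53 arrest and 7 of 12 p53 apoptosis genes, 7 of 15 genes of lipopolysaccharide sensing and NF-kB, 7 of 15 chemokines, 8 of 17 genes of the interferon-gamma axis, 7 of 12 Th1 and Th17 genes, 14 of 19 T cell genes and 8 of 14 natural killer and cytotoxic genes. With the slide as a block 12% of genes were higher and 7.55% lower. There, 14 neutrophil and 14 platelet genes, 9 T cell genes and 4 class I genes were higher, 5 Ifit, Ifitm and Oas genes were higher and 2 lower, and 9 B cell genes and 27 kappa probes were lower. The part of the liver and heart RNA in these differences was not tested further.

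The region beside Il10 held a larger share of probes with small p than the other chromosomes, given as a description, and no call. Of 124 tested probes within 10 Mb of Il10 on chromosome 1 22 had an unadjusted p below 0.05 (17.7%, beside 11.0% on the other chromosomes), 17 of them higher and 5 lower, and the groups did not overlap for 7 (5.65%). Within 5 Mb it was 18 of 91 (19.8%), within 20 Mb 25 of 162 (15.4%) and on the whole chromosome 120 of 966 (12.4%). The 3 with a p below 0.001 were Ctse, Zranb3 and Fcmr. The count within 10 Mb was 13 without Il10-/- replicate 4, 11 without both weak arrays, 14 with replicates 1 and 2 averaged and 6 of 61 after normexp correction. The count over all probes, 2065 of 18580 in the main fit, fell as well. In turn it was 1340, 1413 and 1378 of 18580 and, after normexp correction, 587 of 11432. The share was also raised at 0 Gy, where 31 of the 124 (25%) had an unadjusted p below 0.05 beside 16% on the other chromosomes. A stretch from the strain of the stem cells, with its own sequence variants, and an effect of missing IL-10 on these genes cannot be told apart in this design.

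The irradiated arrays were set against the unirradiated ones, which share no array with them. At 0 Gy 157 probes (0.845%) were called, and 0 of these were called at 7 Gy. Of the 157, 97 had the same sign at 7 Gy, beside 11284 of all 18580 probes. With that sign and an unadjusted p below 0.05 at 7 Gy there were 49 (31.2%, beside 9.71% of all probes). The median of the 157 was 2.27 at 0 Gy and 0.50 at 7 Gy. The probes were chosen for a large difference at 0 Gy, so the medians are not set against each other. In turn, 50 of the 56 probes with a p below 0.001 at 7 Gy had the same sign at 0 Gy, again beside 11284 of all 18580. Of the 50, 20 had an unadjusted p below 0.05 at 0 Gy (35.7% of the 56, beside 10.6% of all probes). Over all 18580 probes the 2 differences had a Pearson r of 0.18 and a Spearman rho of 0.22, across probes that are not independent replicates.

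The genotypes stayed apart at both doses for 56 probes (0.301%) of 53 genes, 47 of them higher and 6 lower in Il10-/- blood. These included 8 of the 18 neutrophil genes (Cxcr2, Fpr2, Ltf, Mmp8, Mmp9, Retnlg, Stfa2 and Stfa2l1), and Il18rap and Il1b of the IL-1 and IL-18 list, but 0 of the B cell, T cell or platelet genes. The neutrophil median was 1.93 at 0 Gy, with 10 genes called, against 1.27 at 7 Gy. For all probes the median was 0.36 at 0 Gy and 0.08 at 7 Gy. The hepatocyte median was 3.68 at 0 Gy and the acute-phase median 3.34, of the opposite sign to 7 Gy. Of the pathway and PCR list, Ifitm1, Gstt1, Il18r1, Acsbg1 and Lbp were called at 0 Gy, by 3.01, 4.67, 2.18, 2.74 and 2.57, and none at 7 Gy. No probe was called for a genotype difference that changed with dose (1300 of 18580 had an unadjusted p below 0.05, 7.00%, and no adjusted p was under 0.688). This lowest adjusted p was tied over a number of probes and singles out none of them. Among these were Ms4a4a, with a difference of 0.69 at 0 Gy and -1.23 at 7 Gy, and the kappa segment ENSMUST00000103380. Others changed upwards, such as the heavy chain segment ENSMUST00000103418 with -0.71 at 0 Gy and 0.78 at 7 Gy. A loss or gain of a genotype difference with irradiation was therefore not shown for any single gene.

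**Figure D5:**
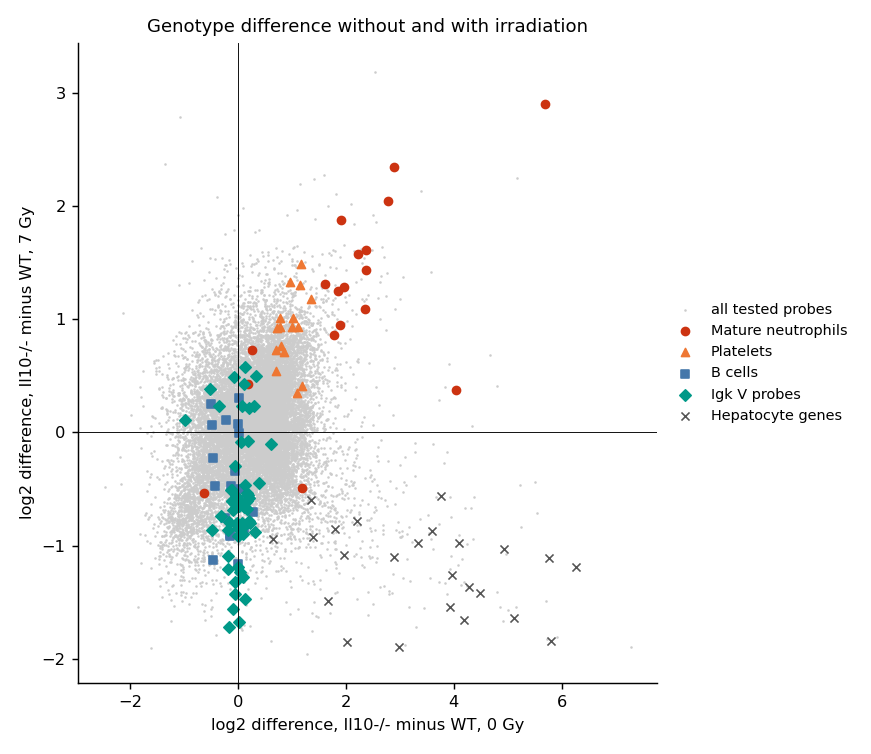
Genotype difference (log2, Il10-/- minus WT) without irradiation on the horizontal axis against that after 7 Gy on the vertical axis, for all tested probes in grey and for 5 groups of genes by symbol. Neutrophil genes are mostly high on both axes, platelet genes lie near the same value on both, kappa segments near 0 on the horizontal axis reach down to -1.72 on the vertical, and hepatocyte genes lie to the right at 0 Gy and below 0 at 7 Gy.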

How the data were processed

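Blood RNA was hybridised to Agilent 1-colour mouse arrays, 4 to a slide, 1 per group on each of 5 slides. The deposited scanner files give background-corrected spot intensity (the processed signal) from Feature Extraction 10.7 per the labels and 12.0.2.2 per the file headers. The deposited value table holds log2 values that differ from the scanner files by 1 constant per array (column medians 5.21 to 6.76, centring otherwise unstated) and was used as an alternative only, as the authors' table. Probe positions are mm9, as the files give them. Exon and UTR annotation was not used here. Names were updated through RefSeq GRCm38.p6 (28330 of 29785 accessions matched).

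Here each array's log2 intensity of 39429 non-control probes was centred on its median, after the study's methods. Probes failing its background filter (marked on 25% or more of arrays, 22987 kept) or its 1.5-fold filter on 20% of arrays were left out. The 10 irradiated arrays were fitted with limma 3.58.1 in R 4.3.3 (eBayes, Benjamini-Hochberg over 18580 probes). Genes were called at p below 0.001 and a false discovery rate below 10%. Lists use each gene's brightest probe and unadjusted p. The fit was tested on simulated data. Array number limits the precision. Fold changes are ratios of the normalized signal.

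Genes were named by rule: Il10, genes the study measured or drew, the called genes, else 8 per direction of smallest p without overlap, and in 39 lists the called or the highest and lowest members. Some genes are not reported here. Others named were chosen after their values were seen. The comparison, members and lists were chosen with earlier results of these data known. Replicate number marks the slide. Deviations from group means correlated within slides at 0.66, 0.68, 0.14, -0.02 and 0.61. The fit without the block was fixed as the main one, and values with the slide as a block stand beside the main counts.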

Additional observations from a re-analysis of the deposited data

Results flagged for a closer look

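Of 201 groups of 5 arrays checked, 16 (7.96%) held an array that lay apart, with a gap to its nearest neighbour over 0.71 of the group's range. Chance gives about 1 in 20. Their gaps, as a share of the range, follow with the array and its relative log2 signal.

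In WT blood Ifit3 was at 7.42 on replicate 3, the others at 6.45 to 6.73 (0.714), and Acsbg1 at 2.14 on replicate 4, the others at 0.46 to 0.91 (0.733). On the weak Il10-/- replicate 4 the high values were Ifit3 at 8.60 (0.795), Ifitm1 at 11.33 (0.779), Gstt1 at 9.37 (0.768), Lcn2 at 9.96 (0.722), Cxcr2 at 8.59 (0.715), Cd22 at 3.31 (0.760) and Napsa at 5.14 (0.730). On the weak Il10-/- replicate 3 the low values were Il18r1 at 2.53 (0.723), Cyp2b10 at 4.10 (0.723), Ifng at 3.06 (0.763), H2-Oa at 1.10 (0.727) and Col3a1 at 3.06 (0.722). On Il10-/- replicate 5 Cfd was low at 2.77, the others at 5.06 to 5.33 (0.896), and Jchain low at 0.32, the others at 1.96 to 2.22 (0.862). The 2 weak arrays held 12 of the 16.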

How the results depend on the processing

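The single call at 7 Gy was 1 gene also under 75th percentile and quantile scaling, without the fold filter and at a false discovery rate below 5%. It was 3 with reference array scaling (Hectd4, Pam, Ramp1), 4 in the authors' table (Pam, Ramp1, Il10 and ENSMUST00000103328), 2 without filters, 5 where detection on 5 of 10 arrays was the filter, 3 without variance moderation (Chd9, Hsph1 and Zfp467, not Pam), and 180 with the liver and heart covariates, which left 6 residual degrees of freedom. It was 0 after normexp correction, with all 20 arrays in 1 fit, with replicates 1 and 2 averaged and without both weak arrays, where 587, 1247, 1378 and 1413 probes had an unadjusted p below 0.05 by limma. Higher genes (1) were 3, 3, 2, 4, 2 and 112 under the first 6 of these in turn and 0 under the others; lower genes (0) were 1 in the authors' table, 1 under the detection filter, 1 without moderation and 68 with covariates. Within 10 Mb of Il10 (0) there was 1 in the authors' table, without filters and under the detection filter, which was Il10 itself each time, and 3 with covariates. Leaving out single arrays gave 0 to 1 called, 0 to 1 higher and 0 to 0 lower genes.

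With the replicate number (slide) as a block 0 genes were called at 7 Gy, 0 of them higher, and 3643 probes had an unadjusted p below 0.05 (2316 higher, 1327 lower). At 0 Gy the block gave 355 genes against 142. The same-slide arrays were the best match in 3 of 5 cases.

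At 0 Gy the 142 genes were 41 at the 75th percentile, 79 with reference array scaling, 23 after quantile normalization, 0 after normexp correction (80 probes at an unadjusted p below 0.05), 56 in the authors' table, 64 without filters, 8 without moderation and 74 at a false discovery rate below 5%. They were 44 to 167 when single arrays were left out, with 44 without WT 0 Gy replicate 4 and 92 without Il10-/- 0 Gy replicate 4. The interaction (0) gave 1 in the authors' table and 6 with covariates, and 0 to 0 when arrays were left out.

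Of 717 recomputed differences of 30 named genes 672 kept both their side and their status as called or not called. With the side kept, 11 lost the call and 19 gained one. Another 15 reversed in sign. After normexp correction Cdkn1a (-0.41), Aen (-0.70), Phlda3 (-0.53), Ccng1 (-0.42), Ifit1 (-0.041), Ifit3 (-0.19), Gstt1 (-0.21) and Cyp2b10 (-0.28) reversed. The median of all probes was -0.50 under that correction. Aen was -0.00024 at the 75th percentile and -0.0026 without Il10-/- replicate 4 (-0.0026 to 0.24 over single arrays left out), Lbp 0.017 without WT replicate 5, and Cpt2 0.0088 with replicates 1 and 2 averaged, 0.20 without WT replicate 1, 0.16 without WT replicate 2 and 0.098 without both weak arrays (-0.47 to 0.20 over single arrays left out). The cause of these shifts was not tested.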

Other observations

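Other genes with a p below 0.001 in irradiated blood, chosen after their values were seen and not called, included both members of a pair of chloride channel regulators on chromosome 3. Clca3a1 measured 2.59, 2.75, 3.18, 3.62 and 3.22 in WT and 4.10, 4.16, 4.94, 5.4 and 4.83 in Il10-/- blood, a difference of 1.61. Clca3a2 differed by 1.65, also without overlap. They are similar in sequence, and the array may not tell them apart. The serpin gene Serpina11 measured 7.03, 7.08, 8.54, 8.36 and 7.55 in WT and 5.95, 6.30, 6.07, 6.14 and 6.35 in Il10-/- blood, a difference of -1.55 beside -1.85 at 0 Gy. Ly6d, a surface protein of the B lineage, differed by -1.05 at 7 Gy and 0.07 at 0 Gy. The natural killer receptor Klra7 was 1.12 higher and the coagulation factor F5 1.14 higher, both without overlap.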
